A study of Rattus norvegicus with 10 samples.

Results

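Neurotrophins and their receptors were examined in the trigeminal ganglion (TG) of an oral ulcerative mucositis (OUM) rat model. The members were *Bdnf*, *Ntf3*, *Ntrk2*, *Ntrk3*, *Ngfr* and *Sort1*, and a probe was included when its transcript accession belonged to one of these 6 genes. They are 6 of the 15507 genes that the array's probes could be named for, and they took up 10 of its 30367 probes. Of these, 9 probes of 5 genes were bright enough to be tested, among 21545 tested probes in all. A probe entered by its accession and not by a measured value, and every probe was kept apart. The members themselves were chosen with earlier results of these data known.

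The OUM model group consisted of 5 male Wistar rats, 8 weeks old, in which filter paper soaked in 50% acetic acid was laid for 30 s in the labial fornix of the lower incisors under anesthesia. The naive group consisted of 5 age-matched male Wistar rats given anesthesia alone; the labels call them control. Both groups were sampled on day 2, when whole TGs of both sides were taken after perfusion with saline. RNA of each rat was hybridized to 1 single-colour Agilent SurePrint G3 Rat GE microarray, and rats are therefore the units counted in each n. The ulcer lies in a small part of the field that the ganglion supplies, and all neurons and glia of both ganglia were homogenized together.

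The 75th percentile of spot signal lay between 2617 and 2939 intensity units on the 10 arrays, and 69.1% to 75.7% of probes were well above background. Any 2 arrays correlated at r = 0.988 to 0.998. The arrays came from 2 slides, each with its own scan: slide 1 held 3 OUM and 4 naive arrays, and slide 2 held 2 OUM and 1 naive array. The tissue label was checked against sensory neuron markers, and 8 of the 8 such genes with a probe were well above background on every array, as were 10 of 10 genes of Schwann cells and myelin. Pituitary hormone markers summed to 1.41 to 26.5 times the 75th percentile on OUM arrays and to 0.703 to 21.9 times on naive arrays, highest on OUM 1, OUM 2 and naive 1. Central oligodendrocyte and astrocyte markers, all 8 of 8 detected, summed to 6.31 to 12.9 on OUM arrays and 4.44 to 9.01 on naive arrays. Over all probes, limma with Benjamini-Hochberg adjustment placed 2 of 21545 past an adjusted p of 0.05.

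Neurotrophins are secreted growth factors that keep sensory neurons alive during development and tune their excitability in the adult. BDNF and neurotrophin-3, the products of *Bdnf* and *Ntf3*, act through the tyrosine kinase receptors TrkB (*Ntrk2*) and TrkC (*Ntrk3*), which signal through the ERK, PI3K and phospholipase C pathways. The p75 receptor (*Ngfr*) binds all neurotrophins, and together with sortilin (*Sort1*) it binds the uncleaved proneurotrophins. In sensory ganglia BDNF is made by peptidergic nociceptors and released in the central nervous system, whereas TrkB and TrkC mark many low-threshold mechanoreceptors. Signal is given below as log2 intensity with the array's 75th percentile set to 0, and each change is OUM minus naive on that scale. The signal of one probe cannot be ranked against that of another probe.

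None of the 9 tested probes passed an adjusted p of 0.05 (limma, Benjamini-Hochberg over all 21545 probes), against 0.00928% of all tested probes. At an unadjusted p under 0.05 there were 5 of 9 probes, against 8.9% of all tested probes. The 5 were the *Bdnf* probe, 1 of 3 *Ntrk2* probes and both *Sort1* probes, which were higher in OUM rats, and 1 of 2 *Ntrk3* probes, which was lower. The background was 3.75% of tested probes higher and 5.16% lower, or 807 and 1111 probes, a split that moved with the scaling to 1004 and 813 with quantile normalization, 999 and 628 with median scaling and 1023 and 775 in the authors' value table. Probes of one gene were measured in the same rats, and both *Sort1* probes were designed on one transcript, so these are not independent counts. The members were also chosen with earlier results of these data known. The changes were small: the 9 differences ran from -0.21 to 0.24, and the median absolute difference over all tested probes was 0.067. In bulk RNA fewer cells of a type and less RNA per cell cannot be told apart, so each value is a level in the ganglion as a whole.

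**Figure D1:**
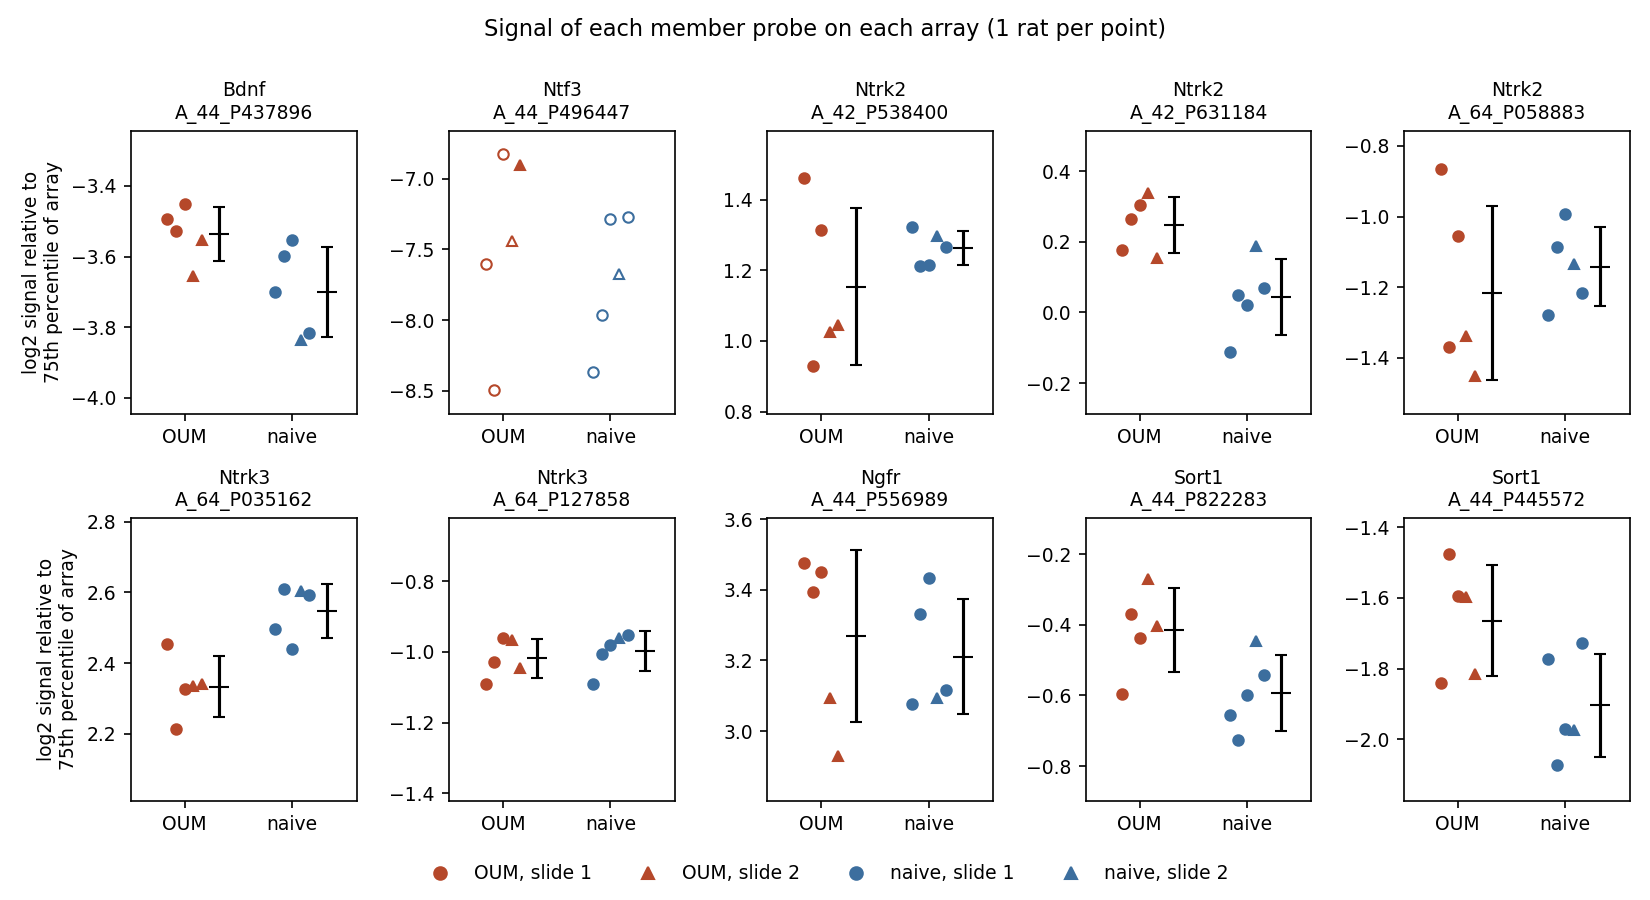
Log2 signal of each of the 10 member probes, with the array's 75th percentile at 0, for the 5 OUM (left in each panel) and 5 naive arrays. Circles are slide 1, triangles slide 2, and open symbols arrays where the probe was not well above background. Bars are the mean and SD, drawn where all 10 arrays were above background. The vertical span is the same in every panel except that of *Ntf3*; the groups overlap in all panels, least for *Ntrk3* A_64_P035162, where 4 of 5 OUM arrays lay under the naive range, and *Sort1* A_44_P822283, with 4 of 5 above all naive arrays.

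Among the ligands, *Bdnf* was read by 1 probe, A_44_P437896 (transcript NM_012513), printed as 10 spots on each array. Its signal was -3.49, -3.53, -3.45, -3.66 and -3.55 in OUM rats 1 to 5, and -3.70, -3.60, -3.55, -3.84 and -3.81 in naive rats 1 to 5. OUM rats 1, 2 and 3 lay above every naive rat, whereas OUM rats 4 and 5 fell within the naive range. The mean was -3.54 ± 0.077 in OUM rats and -3.70 ± 0.13 in naive rats (SD, n = 5 each), a difference of 0.16 ± 0.067 (SE), or 1.12-fold (95% interval 1.01 to 1.24). This had an adjusted p of 0.528 by limma (p = 0.0335 before adjustment) and p = 0.0476 in an exact permutation test (two-sided), which can go no lower than 0.00794 here. The difference was 0.18 within slide 1 and 0.23 within slide 2. Without 1 array at a time it stayed between 0.13 and 0.20, and the unadjusted p was over 0.05 after 6 of the 10 removals. The 9 to 10 spots retained per array had a median coefficient of variation of 6.01%, so the signal of each array was well measured, and the SD between rats of one group was 0.10.

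*Bdnf* has several 5′ exons, each with its own promoter, and its transcription in neurons is known to follow activity through CREB, a factor that binds the cyclic AMP response element (CRE). The 1 *Bdnf* probe does not separate the transcripts of these promoters. RefSeq promoter windows of the GRCr8 assembly, from 250 bases before to 50 bases after a start, were searched on both strands for the full element TGACGTCA and for its half-site CGTCA, which is contained in it. *Bdnf* has 6 windows, of which 0 held the full element and 1 held the half-site, while the full element was in 1.83% and the half-site in 21.2% of all 33469 windows. The stretch from 95 to 26 bases before that start, chr3:116637763-116637832 on the + strand, is shown with the half-site in capitals, so that it can be set beside the Trk-induced genes described further on.
Bdnf: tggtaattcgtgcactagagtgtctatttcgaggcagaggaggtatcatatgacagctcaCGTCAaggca
The match is a description of the letters, and no binding was measured. Of the 6 members, 3 had windows (*Bdnf*, *Ntf3* and *Sort1*), and neither the 3 windows of *Ntf3* nor the 1 window of *Sort1* held either motif.

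*Ntf3*, the gene of the TrkC ligand, was read by probe A_44_P496447 (NM_031073) in 2 spots and was at the detection limit. It was well above background in OUM rat 5 only, that is on 1 of 5 OUM arrays and 0 of 5 naive arrays. Its signal was -7.60, -8.50, -6.83, -7.44 and -6.91 in OUM rats 1 to 5 and -8.37, -7.97, -7.28, -7.67 and -7.27 in naive rats 1 to 5. The groups overlapped, and OUM rat 2 had the lowest value of all 10. The median coefficient of variation of its paired spots was 26.7%. It was not tested, and no fold change is given, since a change in *Ntf3* was not detectable at this signal.

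*Ntrk2* encodes full-length TrkB and truncated forms that lack the kinase and are made by glia as well as neurons. It was read by 3 probes, 1 spot each: A_42_P538400 and A_64_P058883 were designed on transcript NM_012731 and A_42_P631184 on transcript NM_001163168. The forms that each probe detects are not given in the files, so the probes are named by these transcripts.

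Probe A_42_P631184 had a signal of 0.18, 0.26, 0.30, 0.34 and 0.15 in OUM rats 1 to 5 and of -0.11, 0.05, 0.02, 0.19 and 0.07 in naive rats 1 to 5. OUM rats 2, 3 and 4 were above every naive rat, and the lowest OUM rats, 1 and 5, were above all naive rats except naive 4. The mean was 0.25 ± 0.080 in OUM rats and 0.043 ± 0.11 in naive rats (SD, n = 5 each). The difference was 0.20 ± 0.062 (SE), or 1.15-fold (95% interval 1.05 to 1.27), with an adjusted p of 0.474 (limma; p = 0.00775 before adjustment) and an exact permutation p of 0.0238. It was 0.24 within slide 1 and 0.058 within slide 2, and the unadjusted p stayed between 0.00244 and 0.0211 when each array was left out.

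The other two *Ntrk2* probes had lower means in OUM rats, with intervals that included 0. Probe A_42_P538400 was at 1.46, 0.93, 1.31, 1.02 and 1.04 in OUM rats 1 to 5 and at 1.32, 1.21, 1.22, 1.30 and 1.27 in naive rats 1 to 5. Naive rats lay close together, and OUM rats fell on both sides of them, with OUM 1 at the top and OUM 2, 4 and 5 at the bottom. The SD was 0.22 in OUM rats and 0.048 in naive rats, and the difference in means was -0.11 ± 0.096 (SE; limma adjusted p = 0.757, exact permutation p = 0.310, 95% interval -0.32 to 0.10). This value depended on single rats: it was -0.19 without OUM 1, with an unadjusted limma p of 0.0353 (adjusted 0.362), and -0.052 without OUM 2. It was -0.020 within slide 1 and -0.26 within slide 2. Probe A_64_P058883 was at -0.87, -1.37, -1.06, -1.34 and -1.45 in OUM rats and at -1.28, -1.09, -0.99, -1.13 and -1.22 in naive rats. It ordered the OUM rats in much the same way, with OUM 1 again highest and OUM 2, 4 and 5 lowest, and the difference was -0.074 ± 0.11 (SE; limma adjusted p = 0.873, exact permutation p = 0.548). It was -0.16 without OUM 1 and -0.016 without OUM 5. Within slide 1 the difference of this probe was 0.047 and within slide 2 it was -0.26, so its direction was not the same on both slides.

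The spread of these *Ntrk2* probes among OUM rats was shared with markers of large-diameter sensory neurons, such as the neurofilament genes, 9 of which were detected. The summed signal of those markers was 208 to 277 on OUM arrays and 233 to 257 on naive arrays (exact permutation p = 0.413), and OUM 2, 4 and 5 had the lowest sums and OUM 1 the highest. Across the 10 arrays probe A_64_P058883 followed the log2 sum at Pearson r = 0.920 (permutation p = 0.00023, adjusted over 117 probe and marker list relations 0.0263) and Spearman rho = 0.927 (permutation p = 0.00035, adjusted 0.0410). Pearson r was 0.869 without the 2 arrays farthest from the median sum, 0.903 within slide 1 and 0.919 after group means were removed. For A_42_P538400 Pearson r was 0.877 (permutation p = 0.00117, adjusted 0.0456) and Spearman rho was 0.624 (permutation p = 0.0604, adjusted 0.272). Pearson r of this probe was 0.718 without the 2 farthest arrays, 0.829 within slide 1 and 0.864 after group means were removed. The general sensory neuron markers were followed as well. There r was 0.843 for A_64_P058883 (permutation p = 0.00255, adjusted 0.0473) and 0.743 for A_42_P538400 (permutation p = 0.0136, adjusted 0.145). With small-diameter neuron markers r was 0.140 and 0.329, and with endothelium markers -0.704 and -0.800, in that order. Probe A_42_P631184 did not share this pattern. Its r was -0.302 with large-diameter neuron markers (permutation p = 0.395, adjusted 0.690) and -0.712 with small-diameter neuron markers (permutation p = 0.0222, adjusted 0.174). With central oligodendrocyte and astrocyte markers it was 0.598 (permutation p = 0.0677, adjusted 0.264). The part of neuron content in the *Ntrk2* values was not tested.

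*Ntrk3*, the gene of TrkC, was read by 2 probes, and the lower signal in OUM rats was seen with only one of them. Probe A_64_P035162 (NM_001270656, 2 spots) was at 2.45, 2.21, 2.33, 2.34 and 2.34 in OUM rats 1 to 5 and at 2.50, 2.61, 2.44, 2.60 and 2.59 in naive rats 1 to 5. OUM rats 2 to 5 were below every naive rat, and OUM 1 lay just above naive 3, the lowest naive rat. The mean was 2.33 ± 0.085 in OUM rats and 2.55 ± 0.076 in naive rats (SD, n = 5 each). The difference was -0.21 ± 0.055 (SE), 0.862-fold with a 95% interval of 0.792 to 0.938, which ranked 155 by p among all tested probes. Its adjusted p was 0.401 (limma; p = 0.00292 before adjustment) and its exact permutation p was 0.0159. The difference was -0.20 within slide 1 and -0.26 within slide 2, and leaving out each array in turn kept it between -0.24 and -0.18, with an unadjusted p of at most 0.00888.

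The second *Ntrk3* probe, A_64_P127858 (NM_019248), was at -1.09, -1.03, -0.96, -0.96 and -1.04 in OUM rats and at -1.09, -1.005, -0.98, -0.96 and -0.95 in naive rats. The groups covered nearly the same range. The difference was -0.021 ± 0.044 (SE; limma adjusted p = 0.912, exact permutation p = 0.516), with a 95% interval of -0.12 to 0.077. Mural cell markers, 6 of 6 detected, summed to 1.42 to 1.59 on OUM arrays and 1.28 to 1.45 on naive arrays (exact permutation p = 0.0476). Probe A_64_P035162 ran against this log2 sum at Pearson r = -0.833 (permutation p = 0.00283, adjusted 0.0473) and Spearman rho = -0.758 (permutation p = 0.0142, adjusted 0.208), at r = -0.808 without the 2 farthest arrays and -0.794 within slide 1. After group means were removed r was -0.644, and the part of mural cell RNA in the *Ntrk3* result was not tested.

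**Figure D2:**
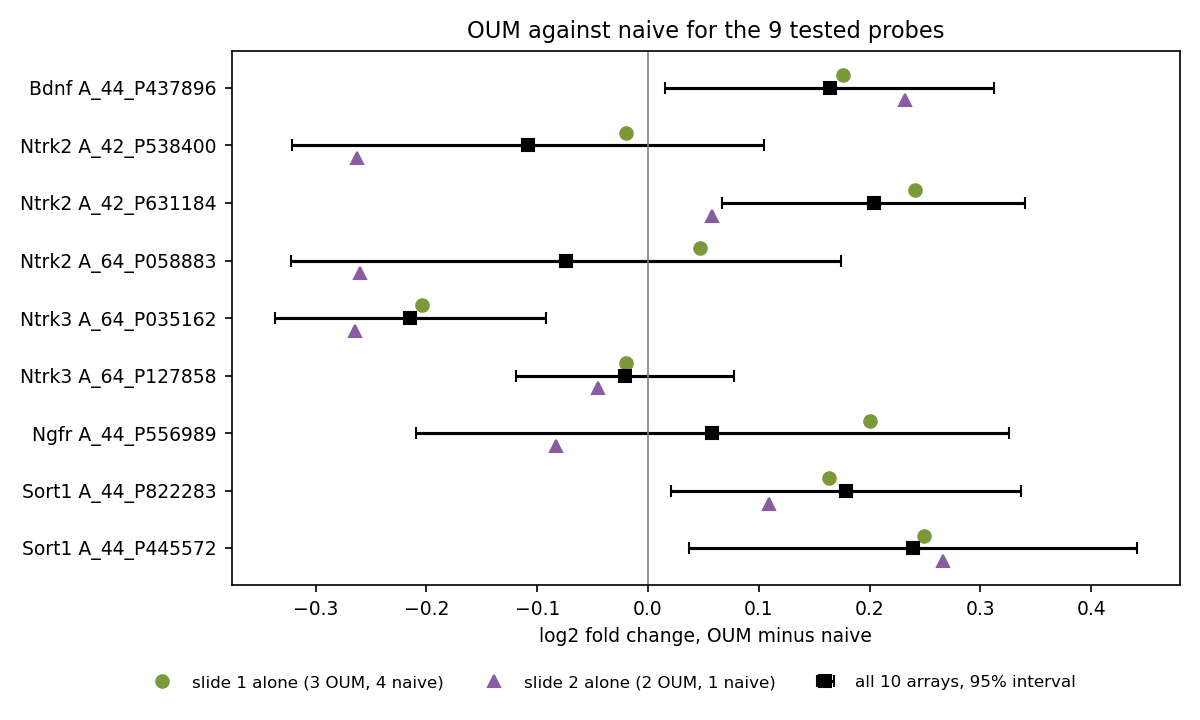
Log2 fold change, OUM minus naive, of the 9 tested probes; squares and bars are the difference over all 10 arrays with its 95% limma interval, circles the difference within slide 1 and triangles within slide 2. All tested probes except *Ntrk2* A_64_P058883 and *Ngfr* lie on the same side of 0 on both slides, and slide 2 held only 1 naive array.

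Since probes of one gene gave different changes, the log2 difference between 2 probes was formed on each array and compared between groups, 5 comparisons in all. For *Ntrk3*, A_64_P035162 minus A_64_P127858 was lower by 0.19 in OUM rats (exact permutation p = 0.0159), with 4 of 5 OUM rats below every naive rat. Relative to the naive mean the difference was -0.0024, -0.30, -0.26, -0.24 and -0.16 in OUM rats 1 to 5, and 0.042, 0.068, -0.13, 0.017 and -0.00060 in naive rats 1 to 5. For *Ntrk2*, A_42_P538400 minus A_42_P631184 was lower by 0.31 in OUM rats (exact permutation p = 0.0476), again with 4 of 5 below every naive rat, and its SD was 0.26 in OUM rats and 0.12 in naive rats. The third *Ntrk2* probe gave 0.28 for A_42_P631184 minus A_64_P058883 (exact permutation p = 0.0794) and -0.034 for A_42_P538400 minus A_64_P058883 (exact permutation p = 0.675). The 2 *Sort1* probes differed between groups by -0.060 (exact permutation p = 0.524). Both of the lower p-values were above 0.05 within slide 1, where the difference was -0.18 for *Ntrk3* (exact permutation p = 0.114) and -0.26 for *Ntrk2* (exact permutation p = 0.200). With the 3 OUM and 4 naive arrays of slide 1 there are fewer assignments, so the smallest possible p is higher than over all 10 arrays. The *Ntrk2* comparison also missed 0.05 after 9 of the 10 single removals. None of the 5 was adjusted for the number of comparisons.

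**Figure D3:**
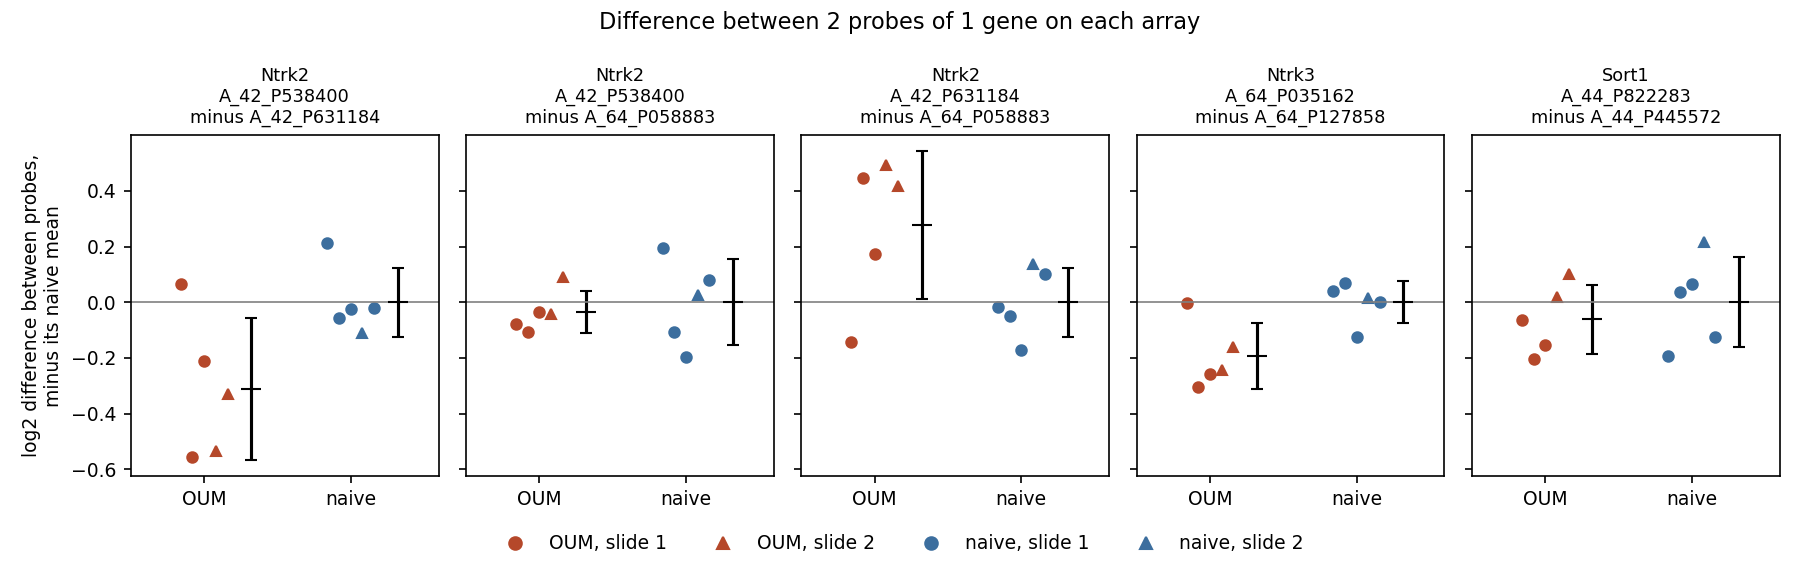
Log2 difference between 2 probes of one gene on each array, with the naive mean of that difference set to 0, for the 5 probe pairs of *Ntrk2*, *Ntrk3* and *Sort1*; OUM arrays are left of naive arrays, circles are slide 1, triangles slide 2, and bars show mean and SD. In the first panel (*Ntrk2*) and the fourth (*Ntrk3*), 4 of 5 OUM arrays lie under the naive range.

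*Ngfr*, the gene of the p75 receptor, was read by probe A_44_P556989 (NM_012610) in 10 spots. Its signal was 3.48, 3.39, 3.45, 3.09 and 2.93 in OUM rats 1 to 5 and 3.08, 3.33, 3.43, 3.09 and 3.12 in naive rats 1 to 5. The highest and the lowest of the 10 arrays were both OUM arrays, and the groups overlapped throughout. The mean was 3.27 ± 0.24 in OUM rats and 3.21 ± 0.16 in naive rats (SD, n = 5 each), a difference of 0.058 ± 0.12 (SE; limma adjusted p = 0.911, exact permutation p = 0.730) with a 95% interval of -0.21 to 0.33. The direction was not the same on both slides: the difference was 0.20 within slide 1 and -0.083 within slide 2. Slide 2 held OUM 4 and 5, at 3.09 and 2.93, and a single naive array, naive 4, at 3.09. The spots of this probe repeated with a median coefficient of variation of 2.89% on one array, so the spread between rats, with an SD of 0.21, was wider than the spread between its spots, with a median SD of 0.042.

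*Sort1* encodes sortilin, a sorting receptor of the Golgi and endosomes that also directs BDNF to the regulated secretory pathway. It was read by 2 probes on the same transcript (NM_031767), 2 spots each, and both were higher in OUM rats. Probe A_44_P822283 was at -0.60, -0.37, -0.44, -0.27 and -0.40 in OUM rats 1 to 5 and at -0.66, -0.73, -0.60, -0.45 and -0.54 in naive rats 1 to 5. OUM rats 2 to 5 were above every naive rat, and OUM 1 lay within the naive range. The difference was 0.18 ± 0.071 (SE), or 1.13-fold (95% interval 1.01 to 1.26), with a limma adjusted p of 0.516 (p = 0.0301 before adjustment) and an exact permutation p of 0.0397.

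Probe A_44_P445572 was at -1.84, -1.48, -1.59, -1.60 and -1.82 in OUM rats and at -1.77, -2.07, -1.97, -1.97 and -1.73 in naive rats. OUM rats 2, 3 and 4 were above every naive rat, and OUM 1 and 5 were below naive 1 and 5. The difference was 0.24 ± 0.091 (SE), or 1.18-fold (95% interval 1.03 to 1.36; limma adjusted p = 0.507, p = 0.0249 before adjustment, exact permutation p = 0.0476). The difference was 0.16 and 0.25 within slide 1 and 0.11 and 0.27 within slide 2 for A_44_P822283 and A_44_P445572, in that order. For each probe the unadjusted p was over 0.05 after 6 of the 10 single removals.

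Both *Sort1* probes followed the markers of central oligodendrocytes and astrocytes, cells that a ganglion sample can hold where it includes the root. Sortilin itself is made by many cell types. The summed markers had a median of 11.2 on OUM arrays and 7.56 on naive arrays (exact permutation p = 0.103). Of 8 tested genes 3 were higher and 0 lower before adjustment (p under 0.05). Over all 11732 tested genes with a symbol, 509 were higher and 538 lower. Across the 10 arrays Pearson r with the log2 sum was 0.902 for A_44_P445572 (permutation p = 0.00045, adjusted over the 117 relations 0.0263) and Spearman rho was 0.903 (permutation p = 0.00078, adjusted 0.0456), while r was 0.881 without the 2 farthest arrays, 0.949 within slide 1 and 0.858 after group means were removed. For A_44_P822283 Pearson r was 0.848 (permutation p = 0.00202, adjusted 0.0473) and Spearman rho 0.842 (permutation p = 0.00346, adjusted 0.101), and r was 0.650 without the 2 farthest arrays and 0.880 within slide 1. This probe also ran against the sensory neuron markers, at r = -0.845 (permutation p = 0.00226, adjusted 0.0473) with rho = -0.782 (permutation p = 0.0108, adjusted 0.180). For A_44_P445572 r was -0.611 (permutation p = 0.0617, adjusted 0.262) and rho -0.527 (permutation p = 0.124, adjusted 0.393). These neuron markers summed to 267 to 337 on OUM arrays and 296 to 334 on naive arrays. OUM 1, the OUM rat with the lowest sum of central markers at 6.31, was the lowest OUM rat on both *Sort1* probes. Mural cell markers also ran with both *Sort1* probes. For A_44_P445572 r was 0.792 (permutation p = 0.00651, adjusted 0.0846), and 0.618 after group means were removed. For A_44_P822283 r was 0.642 (permutation p = 0.0475, adjusted 0.260), and 0.340 after group means were removed. The parts of central tissue and of mural cells in the *Sort1* result were not tested.

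**Figure D4:**
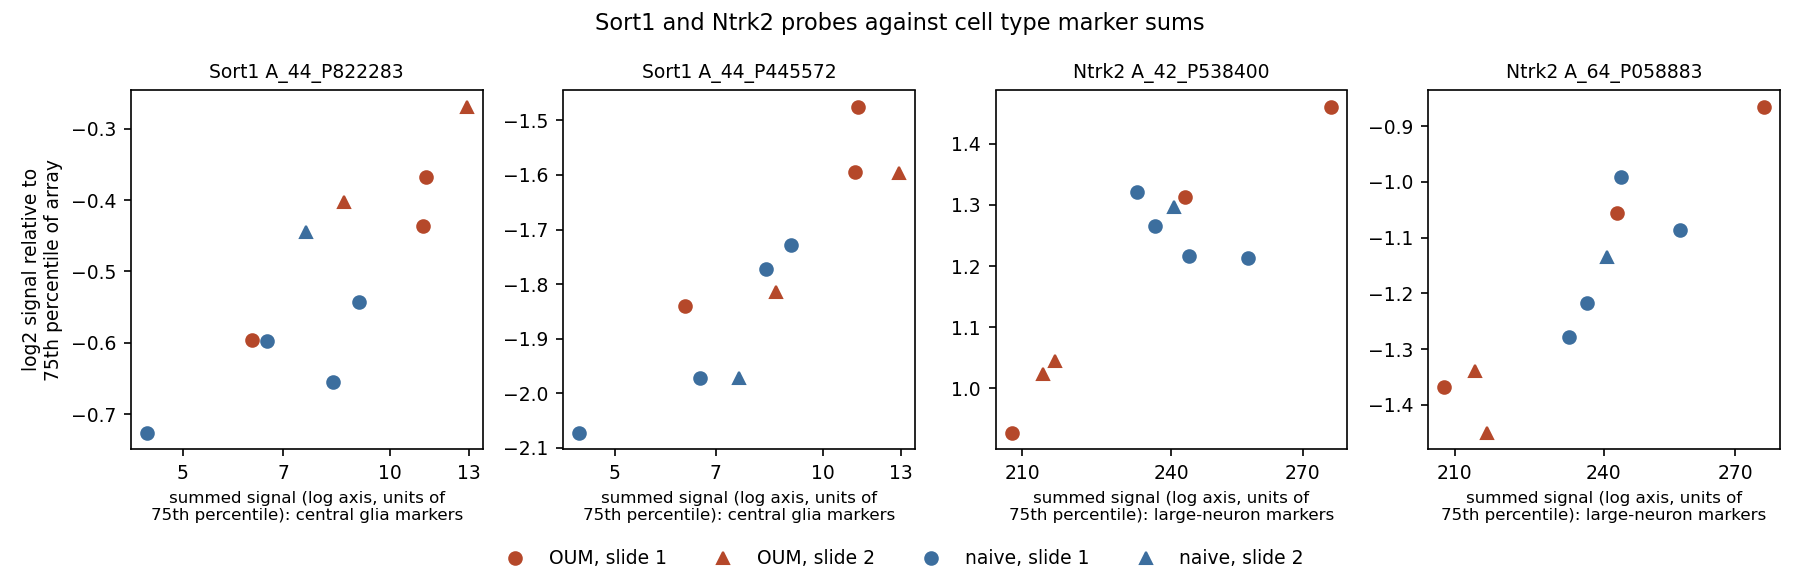
Log2 signal of both *Sort1* probes against the summed signal of central oligodendrocyte and astrocyte markers, and of *Ntrk2* probes A_42_P538400 and A_64_P058883 against that of large-diameter sensory neuron markers, in units of the 75th percentile of the array on a log axis; each point is 1 rat, circles slide 1 and triangles slide 2. The *Sort1* points rise along the axis in both groups (r = 0.848 and 0.902), and the *Ntrk2* probes are lowest in OUM 2, 4 and 5, which hold the lowest neuron sums.

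Between members, the brightest probe of each of the 5 tested genes was compared across the 10 arrays in 10 pairs, and 0 of 10 correlations passed an adjusted p of 0.05. The largest were *Ntrk3* with *Sort1* at r = -0.668 (permutation p = 0.0378, adjusted 0.126) and rho = -0.733 (permutation p = 0.0201, adjusted 0.158), and *Bdnf* with *Ntrk3* at r = -0.665 (permutation p = 0.0379, adjusted 0.126) and rho = -0.648 (permutation p = 0.0485, adjusted 0.162). Without the 2 farthest arrays these were -0.495 and -0.363, with group means removed -0.284 and -0.283, with slide means removed -0.808 and -0.734, and within slide 1 -0.849 and -0.654, for *Ntrk3* with *Sort1* and for *Bdnf* with *Ntrk3* in that order. *Bdnf* and *Ngfr* gave r = 0.637 (permutation p = 0.0527, adjusted 0.126) and rho = 0.697 (permutation p = 0.0316, adjusted 0.158), with 0.654 without the 2 farthest arrays, 0.720 after group means were removed and 0.922 within the 7 arrays of slide 1.

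The genes most like each member over the 10 arrays were taken as the 3 with the highest Pearson r among 11725 genes, a description with no test, since all points share their arrays and scaling. *Bdnf* was followed by *Taf10*, a subunit of the general transcription machinery (r = 0.944), *Irak1*, a kinase of interleukin-1 and Toll-like receptor signaling (0.918), and *Nop2*, an rRNA methyltransferase (0.893). *Ntrk3* was followed by *Scn1a*, a voltage-gated sodium channel (0.959), *Usp9x*, a deubiquitinase (0.958), and *Plekha5* (0.954). *Ngfr* was followed by *Keap1*, the inhibitor of the NRF2 transcription factor (0.970), *Rfng*, a glycosyltransferase that modifies Notch (0.959), and *Lrrn2* (0.959). *Ntrk2*, by probe A_42_P538400, was followed by *C8h3orf18* (0.948), *Smpdl3a* (0.946) and *Timm29*, a part of the mitochondrial protein import machinery (0.942). *Sort1*, by A_44_P822283, was followed by *Tmem150a* (0.965), *Lratd1* (0.949) and *Rsph10b* (0.948). These patterns lay mostly within the groups: with group means removed the 15 correlations ran from 0.819 to 0.969, and the limma adjusted p of the 15 genes ran from 0.391 to 0.922.

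The rest of the pathway was followed with 6 gene lists holding 143 genes, of which 123 were tested by the brightest probe. None passed an adjusted p of 0.05 (limma over all tested probes). At an unadjusted p under 0.05, 9 were higher and 2 lower, or 8.94% of 123, against 8.92% of the 11732 tested genes with a symbol (509 and 538 genes), and the median difference was -0.014 against -0.0099.

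In the list of other ligands and receptors 0 of 9 tested genes reached an unadjusted p of 0.05. Their differences ran from -0.084 to 0.20. None of these 9 genes is a neurotrophin or a Trk receptor, so they say nothing on further members of those families. Of 9 tested genes for cleavage of proneurotrophins, 1 was higher and 1 lower before adjustment, or 22.2% against 8.92% of all tested genes with a symbol. *Pcsk6*, a furin-like convertase, averaged 0.57 ± 0.17 in OUM rats and 0.30 ± 0.17 in naive rats (SD, n = 5 each; difference 0.27, limma adjusted p = 0.502), and its second probe differed by 0.23. *Plat*, tissue plasminogen activator, which starts the plasmin cascade that cleaves proBDNF, averaged 2.58 ± 0.056 in OUM rats and 2.72 ± 0.11 in naive rats (SD, n = 5 each; difference -0.13, limma adjusted p = 0.550).

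Of 39 tested Trk adaptors and members of the ERK, PI3K and phospholipase C arms, 2 were higher and 1 lower before adjustment, or 7.69% against 8.92% of all tested genes with a symbol, and the median was -0.00018. These were *Pik3r2*, a regulatory subunit of PI3K (0.17, limma adjusted p = 0.486), *Frs3*, an adaptor that binds Trk receptors (0.27, adjusted p = 0.507), and *Pik3ca*, a catalytic subunit (-0.20, adjusted p = 0.483), whose 5 other probes ran from -0.12 to 0.12. Of 27 tested partners and proteases of p75, 1 was higher and 0 lower before adjustment, or 3.70% against 8.92% of all tested genes with a symbol. This was *Rela*, the NF-kappa B subunit, which differed by 0.19, and by 0.34 on its second probe (limma adjusted p = 0.486 for both). In the trafficking list 0 of 20 tested genes reached an unadjusted p of 0.05, and the range was -0.11 to 0.15.

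The genes that Trk signaling induces, together with its feedback inhibitors, held the widest differences of the lists. Of 20 tested genes 5 were higher and 0 lower before adjustment (p under 0.05), or 25.0% against 8.92% of all tested genes with a symbol (509 and 538 of 11732), and the median difference was 0.10, against -0.0099 over all tested genes with a symbol. *Nr4a1*, an immediate early nuclear receptor, averaged 1.71 ± 0.023 in OUM rats and 1.39 ± 0.098 in naive rats (SD, n = 5 each), and all 5 OUM rats were above all naive rats. Its difference was 0.32 ± 0.051 (SE; limma adjusted p = 0.142, p = 9.2e-05 before adjustment, exact permutation p = 0.00794, the smallest possible). *Atf3*, a transcription factor known as a marker of axonal injury, averaged -0.52 ± 0.16 in OUM rats and -0.98 ± 0.10 in naive rats (SD, n = 5 each), with all 5 OUM rats above (difference 0.46 ± 0.083 SE; limma adjusted p = 0.200, exact permutation p = 0.00794). *Vgf*, a secreted neuropeptide precursor that neurotrophins induce in neurons, averaged 2.32 ± 0.28 in OUM rats and 1.81 ± 0.17 in naive rats (SD, n = 5 each; difference 0.51, limma adjusted p = 0.411), with 4 of 5 OUM rats above. *Egr2*, an immediate early factor that Schwann cells also use for myelination, differed by 0.38 (limma adjusted p = 0.483), and *Spry4*, an inhibitor of ERK signaling, by 0.20 (adjusted p = 0.495). These genes answer many inputs besides neurotrophins, and the list was written with earlier results of these data known.

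Of these 5 genes, *Nr4a1*, *Vgf*, *Egr2* and *Spry4* each had 1 promoter window, of which 3 held the CRE half-site and only that of *Vgf* held the full element. The same stretch as for *Bdnf* is given, from 95 to 26 bases before the start, to set these 3 beside it: chr7:134260043-134260112 on the + strand for *Nr4a1*, chr20:21054467-21054536 on the - strand for *Egr2* and chr12:25277046-25277115 on the - strand for *Vgf* (RefSeq, GRCr8). Capitals mark the half-site, or for *Vgf* the full element.
Nr4a1: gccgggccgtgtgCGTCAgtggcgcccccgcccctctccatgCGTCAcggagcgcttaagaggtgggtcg
Egr2: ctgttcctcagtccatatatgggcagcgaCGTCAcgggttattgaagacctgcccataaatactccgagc
Vgf: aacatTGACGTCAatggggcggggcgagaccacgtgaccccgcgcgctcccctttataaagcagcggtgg
The window of *Spry4* held neither motif. With the half-site in 21.2% of all windows, its presence in a window is common, and no binding of a factor was measured here.

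**Figure D5:**
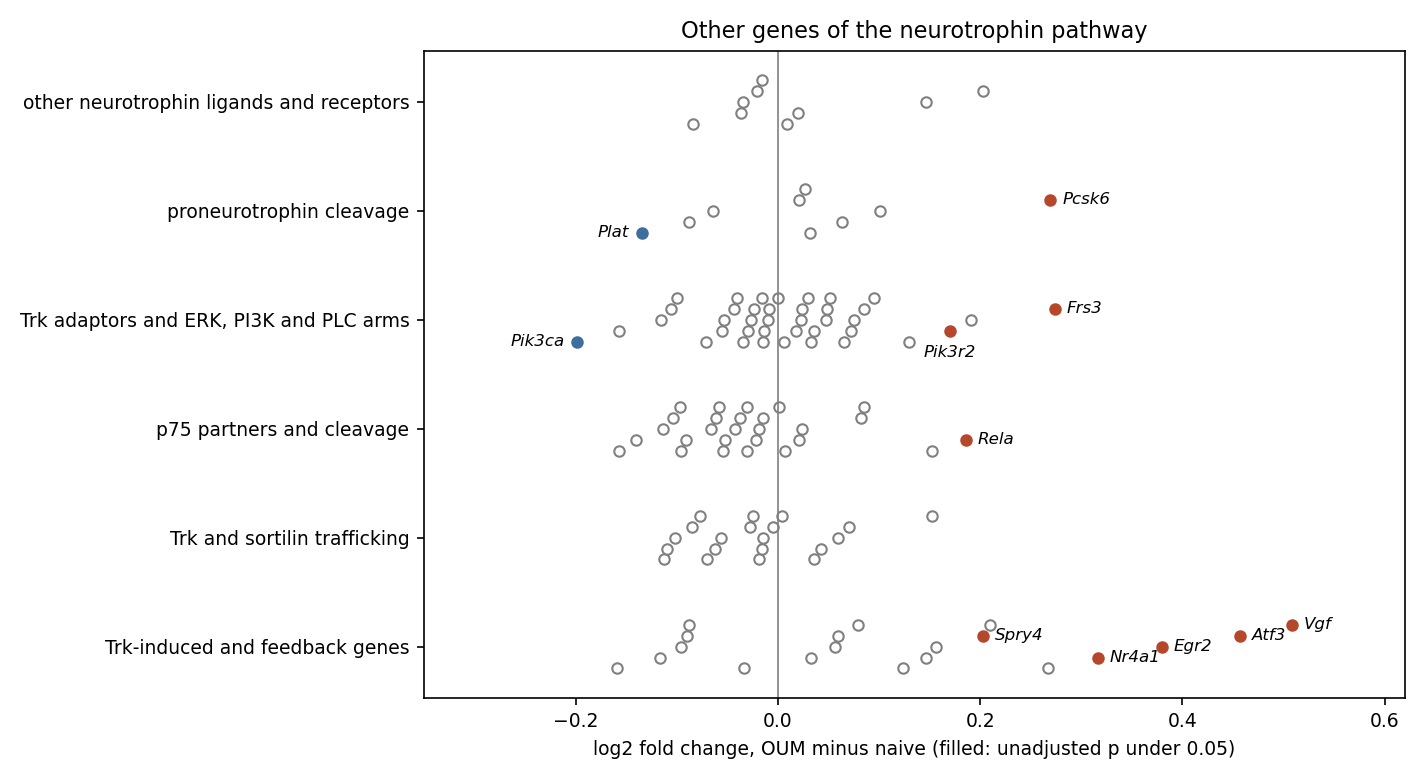
Log2 fold change, OUM minus naive, of the tested genes of the 6 pathway lists, 1 point per gene by its brightest probe; filled points had an unadjusted p under 0.05 and are named. The 5 named points of the Trk-induced list lie between 0.20 and 0.51. The trafficking list and the list of other ligands and receptors, whose tested genes include no neurotrophin or Trk receptor, hold no filled point.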

How the data were processed

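Per the labels, the authors scanned the single-colour arrays with Agilent Feature Extraction 10.7.1.1. The deposited intensity is background-subtracted per spot, with marks for outlier, saturated and well-above-background spots. The value table of the authors, normalized in GeneSpring GX, holds intensity divided by 1 constant per array (column medians 0.115 to 0.123) and served as an alternative.

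Control and outlier spots were dropped, spots of a probe averaged, and log2 taken relative to each array's 75th percentile. Accessions were matched to symbols with RefSeq (GRCr8), naming 18438 of 30367 probes. Testing required a signal well above background throughout either group's 5 arrays. Tests used limma 3.58.1 in R 4.3.3, two-sided, Benjamini-Hochberg over all tested probes, threshold 0.05. Exact permutation covered 252 assignments; correlations used 99999 random permutations. The limma step was tested on simulated data. Marker sums add linear signals of a list's brightest probes. From each pathway list, genes past the adjusted threshold were to be named and, failing those, up to 4 with the lowest unadjusted p under 0.05; *Spry4* was named after its values were seen. Some genes of the pathway are not reported here. The members, lists and alternatives were chosen with earlier results of these data known. Normexp (offset 50) used the median spot signal.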

Additional observations from a re-analysis of the deposited data

Results flagged for a closer look

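Among 42 sets of 5 arrays (each member probe and named pathway probe in each group), 3 held an array far from the other 4, where about 1 in 20 would be so by chance, and 0 of these were member probes. *Pcsk6* A_42_P641962 was at 0.27 in OUM 1, with the nearest other OUM rat at 0.61. *Plat* A_64_P119633 was at 2.68 in OUM 1, with the nearest at 2.56. *Pik3ca* A_64_P066438 was at 0.35 in OUM 5, with the nearest at 0.48.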

How the results depend on the processing

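The direction of *Bdnf* (0.13 to 0.23), *Ntrk2* A_42_P631184 (0.058 to 0.24), *Ntrk2* A_42_P538400 (-0.26 to -0.020), *Ntrk3* A_64_P035162 (-0.26 to -0.18) and *Sort1* (0.11 to 0.22 and 0.19 to 0.28) was kept under all 26 or 27 alternatives run, and 0 member probes passed an adjusted p of 0.05 in any. Some alternatives change only the tests and cannot change a difference, so they say nothing on direction. They were the other filters on dim probes, 1 probe per gene, the replicate block, the methods' t-test and the intensity trend. Directions that turned were those of *Ntrk2* A_64_P058883 on slide 1 alone (0.047), *Ntrk3* A_64_P127858 with normexp (0.021), and *Ngfr* on slide 2 alone (-0.083) and without OUM 1, OUM 2 and naive 1, the pituitary-rich arrays (-0.086).

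Member probes at an unadjusted p under 0.05 numbered 5, against 807 higher and 1111 lower of all 21545 probes. They numbered 3 when 1 probe stood for each gene, against 728 higher and 1000 lower of 19293. On slide 1 alone they numbered 3, against 932 higher and 2104 lower of 21767. Leaving out 1 array gave 2 to 5, with 2 without OUM 2 and 3 without naive 1, 2, 3 or 4 or OUM 3 or 4. Over these removals 574 to 1202 of all probes were higher and 739 to 1642 lower. Over all probes 2 passed an adjusted p of 0.05, against 0 with quantile normalization, the 75th percentile over detected probes, no filter, the methods' t-test, the authors' value table or without the 3 pituitary-rich arrays, 1 with an intensity trend or array weights, 4 with median scaling or the slide as a block, 5 with normexp, 7 on slide 1 alone, 332 on slide 2 alone, where the lone naive array is assumed to vary like the OUM arrays, and 0 to 1 without 1 array. Pathway genes past that threshold numbered 0, except 1 on slide 2 alone. With the replicate number as a block 0 probes passed in all. There 4 member probes had an unadjusted p under 0.05, against 740 higher and 842 lower of 21545 probes. Same-numbered arrays correlated at -0.092 to 0.32 and only 1 of 10 arrays correlated best with its own number, so the numbers were not taken as pairs. The share of higher probes among those at an unadjusted p under 0.05 was 42.1%, against 61.4% with median scaling and 30.7% on slide 1 alone. Over single removals it ran from 33.55% without naive 4 to 47.85% without OUM 2. *Ntrk2* A_42_P538400 minus A_64_P058883 ranged from -0.084 to 0.015 over single removals, turning without naive 1. With group means removed r of *Bdnf* with *Ntrk2* turned to 0.187 and with *Sort1* to -0.709, and with slide means removed r of *Ngfr* with *Sort1* turned to 0.305; the cause was not tested. With 5 rats a group the precision is limited by their number, and *Ntf3* by its signal over background.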
